A study of Mus musculus with 7 samples.

Results

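The genes described here are Chchd10 and its relatives: Chchd1, Chchd2, Chchd3, Chchd4, Chchd5, Chchd6, Chchd7 and Immt. These 9 genes, of 55487 in the deposited table, were chosen by name, as small mitochondrial proteins with a coiled-coil-helix-coiled-coil-helix (CHCH) fold plus Immt, their partner at the inner membrane. The family was proposed because Chchd10 was higher in tumours given vesicles of senescent cells than in saline tumours, so the values of Chchd10 are given as a description with no test. The question was whether its relatives rose with it. All 9 were at 1 TPM (transcripts in each 1000000, a level corrected for transcript length) or more in all 7 libraries, so all 9 were tested or described.

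The tumours grew from 4T1-12b(luc) cells, a luciferase-carrying line of the mouse mammary carcinoma 4T1, in the mammary fat pads of BALB/c mice with the genotype label WT. At about 150 mm3 they received 6 intratumoral injections of 50 µl, 1 every other day, and the primary tumours carry the label day 12. TIS sEV (3 libraries) were small extracellular vesicles of 4T1 cells kept for 72 h in 100 ng/ml nocodazole, a microtubule poison, and released for 72 h, which the labels call therapy-induced senescence. Cont sEV (1 library) were vesicles of 4T1 cells kept in DMSO and released for the same times, and Saline (3 libraries) received no vesicles. The labels do not state that the libraries are separate animals, so the spread between libraries may be technical. All groups are mixtures of tumour and host cells, in which fewer cells of a type and less RNA per cell cannot be told apart. The epithelial markers Krt8 and Krt18 averaged 703 and 757 TPM with TIS sEV, against 1336 and 1555 TPM with saline, so both were present in both groups. Krt8 ranged from 218 to 1157 TPM with TIS sEV. Krt14, of the same list and chosen after its values were seen, averaged 30.8 TPM with TIS sEV and 12.9 TPM with saline. Its groups overlapped, at 67.7, 21.4 and 3.27 TPM with TIS sEV and 7.88, 19.4 and 11.3 TPM with saline. The share of tumour cells was not measured.

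CHCH proteins are made in the cytosol and enter the space between the mitochondrial membranes, where disulfide bonds between paired cysteines trap them. Chchd4, known as MIA40, forms those bonds and is thereby the import receptor for the others. Chchd3, Chchd6 and Immt are subunits of MICOS, the complex that holds the necks of the cristae, and Chchd10 and Chchd2 are paralogs found near it. Chchd10 is abundant in heart and skeletal muscle, and mutations of the human gene are known from motor neuron disease and mitochondrial myopathy.

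TIS sEV replicate 2 stood apart, with 22.9% of its TPM on nuclear ribosomal RNA genes, against 0.807% to 2.40% in the other libraries. It held 28.6% on nuclear protein-coding genes, against 56.8% to 74.7% in the others. On the log2 scale the median tested gene stood at -0.62 in TIS sEV against saline, and at -0.19 without that library. In Cont sEV against saline it stood at -0.33. Differences on the log2(TPM + 1) scale are given relative to that median gene. The p-values printed beside them test the fitted difference before that subtraction. Median-of-ratios size factors, which remove the shift, were 0.352 for TIS sEV replicate 2 and 0.993 to 1.51 for the other libraries.

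Chchd10 lies on chromosome 10 from 75933130 to 75937747 (GRCm38, plus strand), and GENCODE lists 3 transcripts for it. The longest starts at the first base, and a shorter coding transcript starts 2443 bases further on. The gene-level TPM does not separate these starts. The 250 bases before the first start are shown because Chchd10 is the member whose level differed between the groups. They come from RefSeq promoter windows of GRCm38.p6, at chr10:75932880-75933129, plus strand. These bases lie within Mmp11, a gene on the other strand that spans 75923222 to 75936496. The capitals mark a 13-base stretch that occurs in a pair of adjoining copies, which begin 87 and 74 bases before the start.
Chchd10: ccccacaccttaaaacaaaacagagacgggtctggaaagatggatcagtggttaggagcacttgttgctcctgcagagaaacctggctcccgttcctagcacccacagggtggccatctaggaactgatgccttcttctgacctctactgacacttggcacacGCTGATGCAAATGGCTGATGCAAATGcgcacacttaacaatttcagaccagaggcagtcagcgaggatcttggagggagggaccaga

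Each copy of the repeat holds the octamer ATGCAAAT, known as a site of POU-domain factors. It also holds TGATGCAA, the core of elements bound by C/EBP and ATF factors such as ATF4, and these motifs overlap inside the repeat. Both were chosen after the sequence had been read, and were searched on both strands in 32851 promoter windows, from 250 bases before a start to 50 bases after it. The octamer occurred in 1.74% of windows, and at least 2 times in 0.107% of them. TGATGCAA occurred in 0.895% of windows and at least 2 times in 2 windows, of which Chchd10 was 1. The 13-base unit was found in the Chchd10 window only, but it had been taken from that window, so no conclusion is drawn from this. Because it occurs there as a pair, so does each motif inside it. A repeat of 13 bases or more, of any sequence, was present in 5.32% of windows. Of the 9 members, 7 had a window in the table, all but Chchd2 and Chchd7, and neither motif was found in the other 6. The Chchd10 window held 5 CpG dinucleotides, against 13 to 34 in the windows of Chchd1, Chchd3, Chchd4, Chchd5, Chchd6 and Immt, and a median of 7 over all windows. A motif match describes the letters only. No window covered the start of the shorter coding transcript of Chchd10, so its repeat, motif and CpG values describe the first start only. Which start was used in these tumours was not tested.

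Chchd10 had levels of 44.3, 59.4 and 63.8 TPM with TIS sEV. Its level was 12.8 TPM with Cont sEV and 6.14, 5.79 and 7.21 TPM with saline. Every TIS sEV library thus lay above the Cont sEV library, and that library above every saline library. Means were 55.8 ± 10.2 TPM with TIS sEV and 6.38 ± 0.736 TPM with saline (SD, n = 3 each), a ratio of 8.75. The ratio of the Cont sEV tumour to the saline mean was 2.00, from 1 library. Relative to the median gene, the log2 difference between TIS sEV and saline was 3.55, and between Cont sEV and saline 1.24. Without TIS sEV replicate 2 the TIS sEV difference was 3.07. That library was not the highest in TPM, although size factors make it so. Divided by size factors, Chchd10 was at 35.5, 169 and 64.2 with TIS sEV, 12.8 with Cont sEV and 6.10, 3.84 and 4.78 with saline. The mean ratio of TIS sEV to saline on that scale was 18.2, and 10.2 without TIS sEV replicate 2, and the order of the groups was the same.

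**Figure D1:**
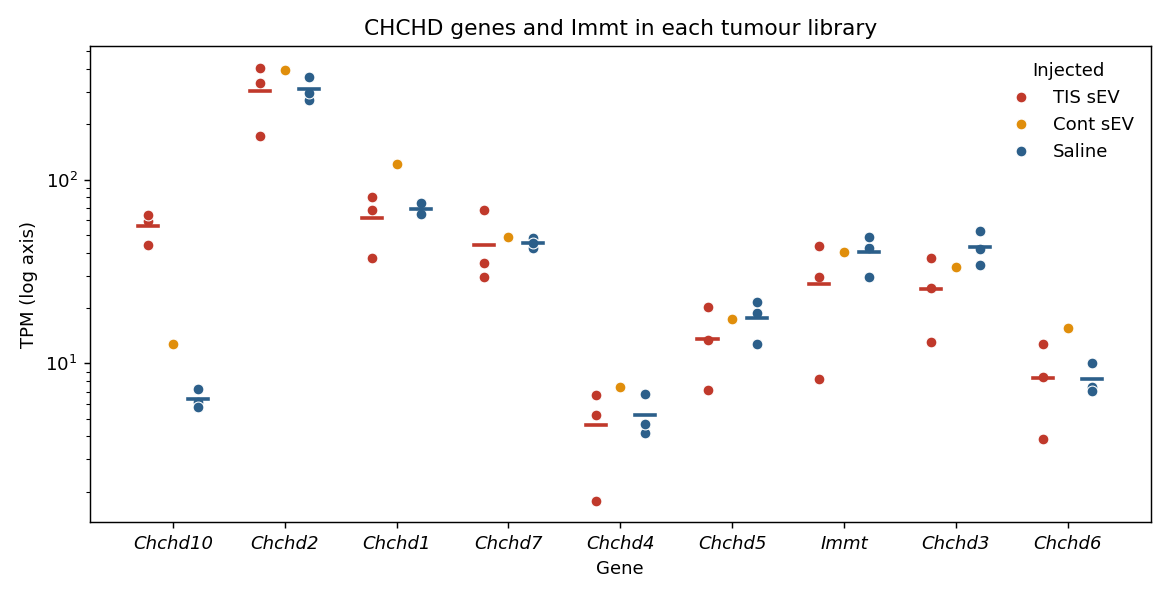
TPM of each of the 9 genes on a log axis, 1 point per library, with TIS sEV left of Cont sEV and saline, and short lines at the means of groups of 3. Chchd10 is at 44.3 to 63.8 TPM with TIS sEV and 5.79 to 7.21 TPM with saline, while the TIS sEV and saline points of the other 8 genes overlap.

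Chchd2, the closest relative of Chchd10 and a regulator of cytochrome c oxidase, was the most abundant member in every library. It was at 333, 171 and 407 TPM with TIS sEV, at 395 TPM with Cont sEV and at 270, 296 and 362 TPM with saline. The TIS sEV values lay on both sides of the saline values. The difference relative to the median gene was 0.51 (SE 0.59, limma adjusted p = 0.914). On the unadjusted scale it was -0.10, and with size factors 0.69 (SE 0.28, limma adjusted p = 0.338), so its sign depended on the scaling.

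The ratio of Chchd10 to Chchd2 within a library does not depend on scaling. It was 0.133, 0.346 and 0.157 with TIS sEV, 0.0323 with Cont sEV and 0.0227, 0.0196 and 0.0199 with saline. Chchd1, by contrast, stood at 0.167 to 0.240 of Chchd2 with TIS sEV, 0.307 with Cont sEV and 0.205 to 0.256 with saline. For Chchd7 the ratio was 0.106 to 0.172 with TIS sEV, 0.124 with Cont sEV and 0.125 to 0.162 with saline. The ratios of Chchd1 and Chchd7 thus overlapped between TIS sEV and saline, whereas those of Chchd10 did not. Chchd3 separated the groups the other way, at 0.0629 to 0.112 of Chchd2 with TIS sEV, 0.0847 with Cont sEV and 0.127 to 0.144 with saline. The share of all genes whose ratio to Chchd2 separates the groups is not given here, so these separations have no background to be read against.

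**Figure D2:**
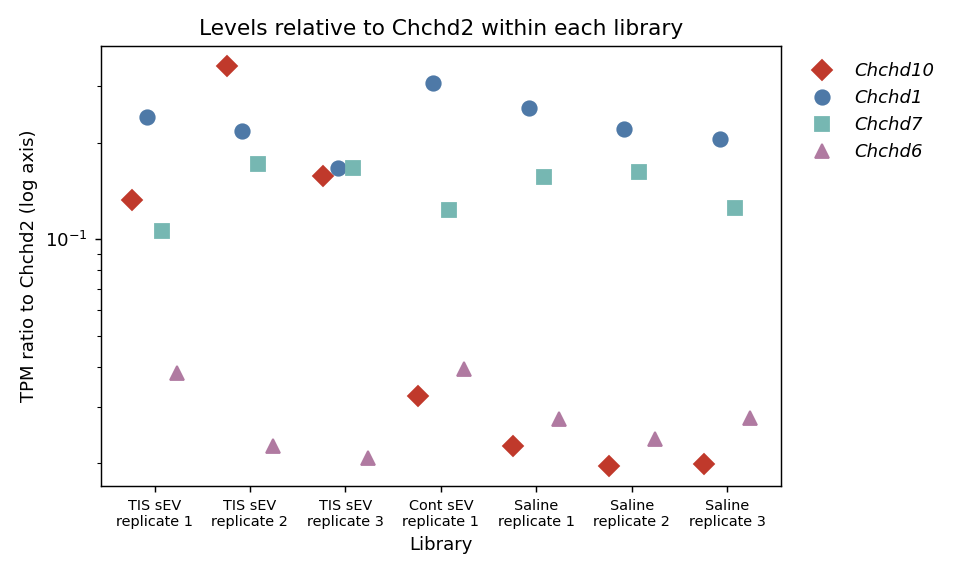
TPM of Chchd10, Chchd1, Chchd7 and Chchd6 divided by that of Chchd2 in the same library, on a log axis, with the libraries along the horizontal axis. The Chchd10 ratio is 0.133 to 0.346 with TIS sEV and 0.0196 to 0.0227 with saline, and the Chchd1 and Chchd7 ratios overlap between these groups.

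Chchd1, a protein of the small subunit of the mitochondrial ribosome, was at 80.0, 37.3 and 67.9 TPM with TIS sEV. It was at 121 TPM with Cont sEV and at 69.1, 65.1 and 74.1 TPM with saline. The Cont sEV tumour was the highest of the 7, and the TIS sEV and saline ranges overlapped. Chchd7, a relative of the yeast cytochrome oxidase assembly factor Cox23, was at 35.2, 29.5 and 67.8 TPM with TIS sEV. It was at 48.8 TPM with Cont sEV and at 42.2, 47.8 and 45.4 TPM with saline. Its TIS sEV libraries were the most spread, with the highest and the lowest values of all 7. Chchd5, a CHCH protein of little known function, was at 20.2, 7.11 and 13.4 TPM with TIS sEV, 17.5 TPM with Cont sEV and 12.7, 18.7 and 21.5 TPM with saline. Its TIS sEV and saline ranges overlapped.

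Chchd4, the import oxidoreductase, had the lowest mean of the family in each group. It was at 6.76, 1.79 and 5.26 TPM with TIS sEV, 7.44 TPM with Cont sEV and 4.20, 4.68 and 6.77 TPM with saline. Its difference between TIS sEV and saline relative to the median gene was 0.36 (SE 0.61, limma adjusted p = 0.795). The groups overlapped in TPM. Divided by size factors they did not, with 5.08 to 5.42 for TIS sEV and 3.11 to 4.49 for saline.

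Among the MICOS subunits, Immt, the core subunit MIC60, was at 43.7, 8.24 and 29.5 TPM with TIS sEV, 40.1 TPM with Cont sEV and 29.5, 42.3 and 48.9 TPM with saline. Chchd3, which is MIC19 and binds Immt, was at 37.2, 13.1 and 25.6 TPM with TIS sEV, 33.4 TPM with Cont sEV and 34.4, 42.1 and 52.2 TPM with saline. Both were lowest in TIS sEV replicate 2 and overlapped between the groups. Their differences relative to the median gene were -0.18 (SE 0.65, limma adjusted p = 0.509) for Immt and -0.22 (SE 0.65, limma adjusted p = 0.499) for Chchd3. Without TIS sEV replicate 2 that of Immt was 0.064. Chchd6, which is MIC25, was at 12.7, 3.89 and 8.46 TPM with TIS sEV, 15.6 TPM with Cont sEV and 7.42, 7.07 and 10.01 TPM with saline. Its difference of 0.54 relative to the median gene was the largest of the 8 relatives. Before subtraction the difference was -0.078 (SE 0.65, limma adjusted p = 0.943), which did not pass. With size factors it was 0.61 (SE 0.22, limma adjusted p = 0.338), which did not pass either. Divided by size factors, its TIS sEV libraries, at 8.52 to 11.1, lay above its saline libraries, at 4.69 to 7.36.

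Of the 8 relatives, 0 passed between TIS sEV and saline in limma at an adjusted p under 0.05, and 0 had an unadjusted p under 0.05, against 10.3% of all tested genes. These p-values test the difference before subtraction, where the median gene stood at -0.62, so the 10.3% is not free of that shift. Among all 12058 tested genes 0.514% passed, 0.348% as higher and 0.166% as lower. Their median difference relative to the median gene was 0.37, with 6 above and 2 below it, and adjusted p was 0.499 to 0.943. With size factors 0 relatives passed, as did 0 of all genes, and 2, Chchd2 and Chchd6, had an unadjusted p under 0.05, as did 14.8% of all tested genes. In the fit on TPM the SE of each relative was 0.59 to 0.66, so differences of the size of 1 SE lay within the noise of that fit. With size factors the SE was smaller, from 0.19 (Chchd4) to 0.40 (Chchd7). There, Chchd2 and Chchd6 differed by 0.69 (SE 0.28) and 0.61 (SE 0.22), and Chchd3 and Immt by -0.065 and -0.042. In TPM, 0 of the 8 relatives separated TIS sEV from saline, against 0.862% of tested genes that did so as higher and 13.5% as lower. Divided by size factors, 2 separated the groups as higher, Chchd4 and Chchd6, against 11.4% of tested genes, and 0 as lower, against 12.3%. Each of the 8 relatives had its lowest TPM of all 7 libraries in TIS sEV replicate 2, where Chchd10 was at 59.4 TPM.

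**Figure D3:**
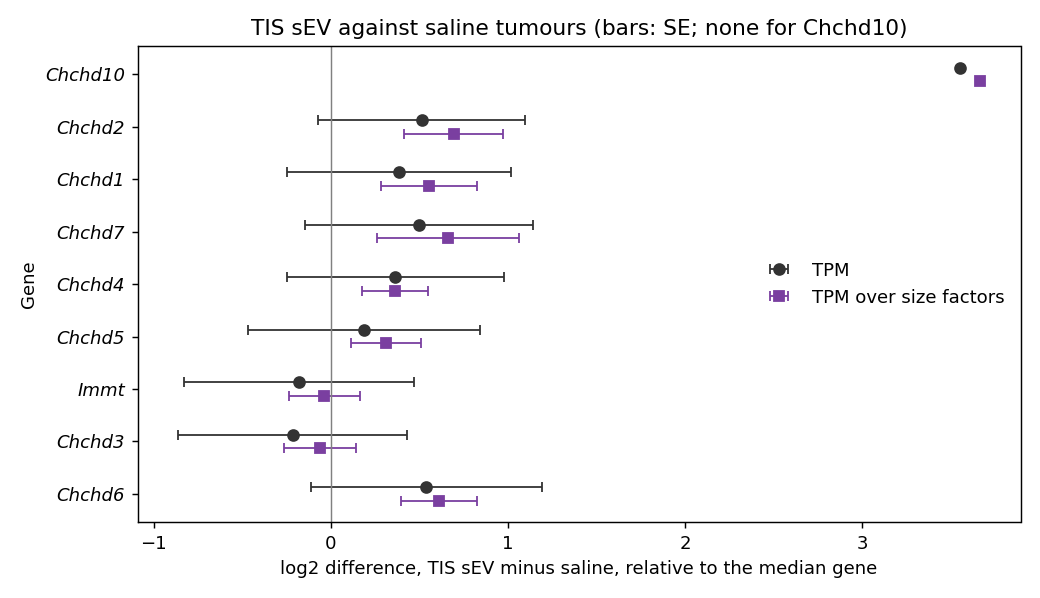
Log2 difference between TIS sEV and saline for each gene, relative to the median gene, from TPM (circles) and from TPM over size factors (squares), with bars of 1 SE and none for Chchd10. Chchd10 lies at 3.55, and the 8 relatives lie between -0.22 and 0.54 from TPM.

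Against the Cont sEV tumour, 0 relatives passed for TIS sEV in limma, where 0.224% of all genes did (0.141% higher, 0.0829% lower), and 0 had an unadjusted p under 0.05, against 1.73% of all genes. With size factors 0 relatives passed, where 0.00829% of all genes did, all of it as higher, and 0 had an unadjusted p under 0.05, against 4.86%. Their differences relative to the median gene were -0.74 to 0.056. The 3 TIS sEV libraries lay below the Cont sEV library for 3 relatives, Chchd1, Chchd4 and Chchd6, against 20% of tested genes, and above it for 0, against 4.59%. Divided by size factors they lay below it for 4, against 22.4% of tested genes, and above it for 0, against 22.1%. Between Cont sEV and saline, 0 relatives passed, where 0.207% of all genes did (0.133% higher, 0.0746% lower), and 0 had an unadjusted p under 0.05, against 2.33% of all genes. With size factors 0 relatives passed between Cont sEV and saline, where 0.00829% of all genes did as lower. There, 3 relatives, Chchd1, Chchd4 and Chchd6, had an unadjusted p under 0.05, as did 12.8% of all genes. Relative to the median gene all 8 had differences above 0, from 0.00023 for Chchd3 to 1.20 for Chchd6. The Cont sEV value lay above all saline values for 5 relatives in TPM (14.1% of tested genes) and for 7 after division by size factors (35.9% of tested genes). It lay below them for 1 relative in TPM, Chchd3 (46.4% of tested genes), and for 0 after division by size factors (35.7%). This rests on 1 library, and the comparisons share the Cont sEV or the saline libraries.

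The make-up of the family shows the same values on a scale free of library composition. Chchd10 took 7.21%, 17.9% and 9.27% of the summed TPM of the 9 genes with TIS sEV, 1.85% with Cont sEV and 1.29%, 1.09% and 1.15% with saline. Chchd2 took 51.7% to 59.1% with TIS sEV, 57.1% with Cont sEV and 55.9% to 57.7% with saline. Chchd3 took 3.72% to 6.06% with TIS sEV, 4.83% with Cont sEV and 7.23% to 8.31% with saline. Its share thus separated TIS sEV from saline too, as lower. No background over all genes is given for these shares. By mean TPM, Chchd10 had rank 3 of 9 with TIS sEV, and its range overlapped those of its neighbours Chchd1 and Chchd7. With Cont sEV and with saline it had rank 8, between Chchd6 and Chchd4. In saline its range overlapped that of Chchd4, and the range of Chchd6 overlapped its own. There, gaps between ranges lay below Chchd2, Chchd1, Immt and Chchd5. With TIS sEV the only gap lay below Chchd2.

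**Figure D4:**
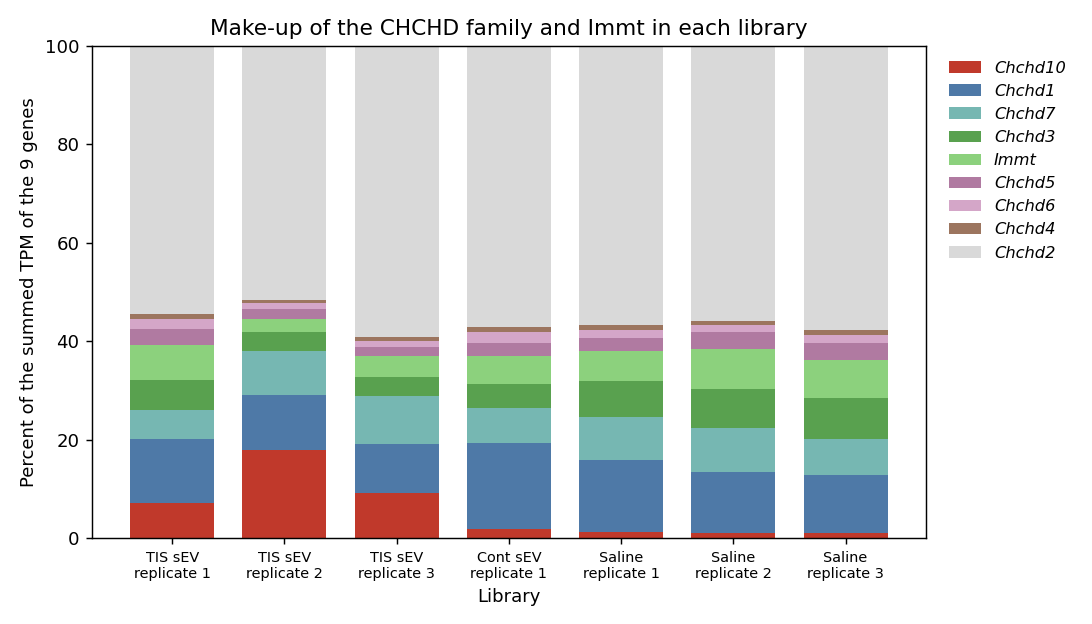
Stacked bars of the percent of the summed TPM of the 9 genes that each gene took in each library, TIS sEV at the left. The red Chchd10 segment is 7.21% to 17.9% with TIS sEV, 1.85% with Cont sEV and 1.09% to 1.29% with saline.

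Other proteins that Chchd4 imports were read from a list of 21 genes, with paired cysteines of the CX9C or CX3C kind, and all 21 were tested. In TIS sEV against saline 0 passed in limma, with a lowest adjusted p of 0.554. Of the 21, 20 lay above the median gene and Timm8a1 below it, with a list median of 0.50 where that of all genes is 0. In Cont sEV against saline, with 1 Cont sEV library, 18 of the 21 lay above the median gene, with a list median of 0.56. The shift was thus not particular to TIS sEV. The most abundant was Uqcrh, the hinge subunit of complex III, at 669 ± 316 TPM with TIS sEV and 811 ± 58.8 TPM with saline (SD, n = 3 each). Cox6b1, a subunit of cytochrome c oxidase, was at 373 ± 170 and Cox17, its copper chaperone, at 233 ± 101 TPM with TIS sEV, against 363 ± 54.4 and 199 ± 36.6 TPM with saline. Ndufb7, of complex I, was at 235 ± 100.5 TPM with TIS sEV and 216 ± 27.3 TPM with saline. For these 4 genes the difference relative to the median gene was 0.21 to 0.75.

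A list of 6 genes for Chchd4's partners and the redox enzymes around them (Gfer, Aifm1, Gpx1, Gsr, Glrx2 and Cycs) had 0 passing and a median of 0.18. Its highest was Gpx1, a glutathione peroxidase, at 699 ± 214 TPM with TIS sEV and 741 ± 100.1 TPM with saline (SD, n = 3 each). Cycs, cytochrome c, differed by 0.016, Glrx2, a mitochondrial glutaredoxin, by 0.34 and Gsr, glutathione reductase, by -0.90, all relative to the median gene. Of 19 symbols for MICOS and its partners, 17 were matched and tested, with 0 passing and a median of 0.032. Minos1, the small MICOS subunit MIC10, was at 204 ± 97.1 TPM with TIS sEV and 156 ± 15.4 TPM with saline (SD, n = 3 each), a difference of 0.88 (SE 0.60, limma adjusted p = 0.789). The MICOS subunit 2410015M20Rik (MIC13) differed by 0.39, the prohibitin Phb2 by 0.20 and C1qbp, a matrix protein, by 0.35.

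The mitochondrial stress response list, targets and chaperones raised when mitochondria fail, held 21 genes, of which 19 were tested. It had 0 passing and a median of 0.10, with 10 genes above the median gene and 9 below. Atf4, the transcription factor at its head, was at 165 ± 71.1 TPM with TIS sEV and 215 ± 12.0 TPM with saline (SD, n = 3 each), a difference of 0.15 (SE 0.60). The chaperone genes Hspe1, Hspa9 and Hspd1 differed by 0.12, -0.081 and -0.31. A list of 16 genes for mitochondrial mass had 14 tested, 0 passing and a median of -0.12. The phosphate carrier Slc25a3 differed by -0.12, the import receptors Tomm20 and Tomm22 by -0.46 and -0.12 and the ADP/ATP carrier Slc25a5 by 0.37. Unadjusted by the median gene, the medians of these 5 lists would all be lower by 0.62. In Cont sEV against saline, with 1 Cont sEV library, the list medians relative to the median gene were 0.56, 0.43, 0.39, 0.20 and 0.20, in the order given. In TIS sEV against Cont sEV they were -0.17, -0.34, -0.26, -0.26 and -0.27.

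**Figure D5:**
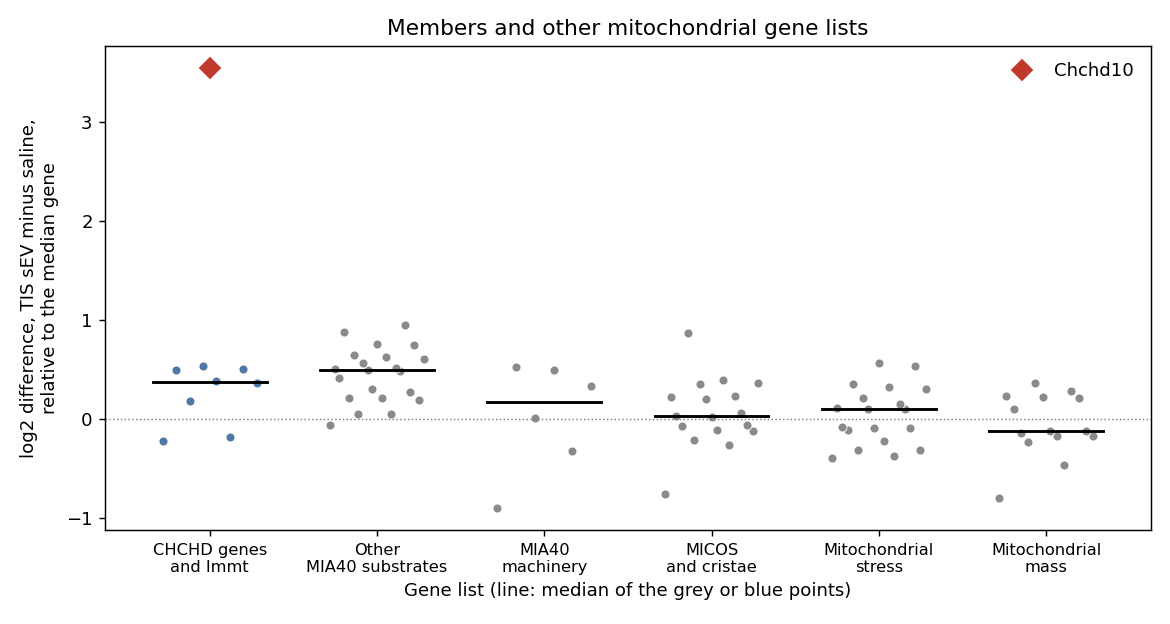
Log2 difference between TIS sEV and saline relative to the median gene, 1 point per tested gene, for the CHCHD relatives (blue), Chchd10 (red diamond) and 5 other mitochondrial gene lists (grey), with lines at the medians of the blue or grey points. Chchd10 stands at 3.55, and the medians are 0.37 for the relatives, 0.50 for other MIA40 substrates and -0.12 for mitochondrial mass.

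Chchd10 shares exonic bases with neighbours on the other strand, 155 with Mmp11, a stromal metalloproteinase, and 25 with Gm867. Whether the library kit marked strand is not given in the sources used here, so reads of these stretches could be assigned to either gene. Mmp11 was at 13.2, 1.88 and 21.1 TPM with TIS sEV, 15.6 TPM with Cont sEV and 23.0, 33.8 and 17.3 TPM with saline. Its difference relative to the median gene was -0.74 (SE 0.66, limma adjusted p = 0.476), the sign opposite to that of Chchd10. Gm867 was at 0.350, 0.0518 and 0.179 TPM with TIS sEV, 0.0502 TPM with Cont sEV, and at 0.0370 TPM in saline replicate 1 and listed at 0 in the other saline libraries. Vpreb3, a gene of B-cell precursors on the same strand, starts 5310 bases past the end of Chchd10 and was chosen after its values were seen. It was at 0.551, 0.603 and 0.716 TPM with TIS sEV, listed at 0 with Cont sEV, and at 0.0438 TPM in saline replicate 1 and listed at 0 in the other saline libraries. With all their values below 1 TPM, Gm867 and Vpreb3 did not enter the fit. The pseudogene Chchd2-ps, which could share reads with Chchd2, reached at most 0.447 TPM.

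Muscle, the tissue richest in Chchd10, was read from 24 marker genes, of which 8 were under 1 TPM in every library. Their summed level was 40.1 to 151 TPM with TIS sEV, 193 TPM with Cont sEV and 90.2 to 253 TPM with saline. The most abundant, Eno3, the muscle enolase, was at 54.4 ± 36.8 TPM with TIS sEV and 61.7 ± 21.8 TPM with saline (SD, n = 3 each), and the troponin Tnni2 at 20.4 ± 15.7 TPM with TIS sEV and 43.4 ± 26.7 TPM with saline. Cox7a1, the heart and muscle form of a cytochrome c oxidase subunit, was at 7.64, 8.4 and 12.3 TPM with TIS sEV, 10.3 TPM with Cont sEV and 3.57, 6.91 and 4.36 TPM with saline. Its TIS sEV libraries lay above its saline libraries, as in 0.862% of tested genes. Its difference relative to the median gene was 1.44 (SE 0.64, limma adjusted p = 0.499). The troponin Tnnt3 separated the groups the other way, at 1.17 to 1.70 TPM with TIS sEV, 7.14 TPM with Cont sEV and 2.43 to 17.9 TPM with saline (limma adjusted p = 0.470). In TPM, 13.5% of tested genes separated the groups in that direction. Of the 7 tested muscle markers 0 passed. The next genes were chosen after their values were seen. Acta1, skeletal actin, was at 1.63, 0.0852 and 0.0424 TPM with TIS sEV, 0.0620 TPM with Cont sEV and 0.228, 0.0549 and 21.9 TPM with saline, so its highest value stood in saline replicate 3. Ckmt2, the muscle creatine kinase of mitochondria, was at 0.0408 TPM in saline replicate 3 and listed at 0 in the other libraries. Adipocyte markers (12 genes, 7 under 1 TPM throughout) summed to 9.56 to 75.4 TPM with TIS sEV, 28.9 TPM with Cont sEV and 14.3 to 24.4 TPM with saline. The high value was that of TIS sEV replicate 2, where Cfd was at 37.9 TPM. Fabp4, a fatty acid carrier and the most abundant of the list, was at 25.7 ± 15.2 TPM with TIS sEV and 16.9 ± 4.16 TPM with saline (SD, n = 3 each). Of the 2 tested adipocyte markers 0 passed.

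The 10 B and plasma cell markers summed to 29.6 to 157 TPM with TIS sEV, 41.8 TPM with Cont sEV and 2.89 to 11.9 TPM with saline, and 2 of 4 tested members rose with TIS sEV against saline, where 0.348% of all tested genes did. These were Igkc, the kappa light chain (limma adjusted p = 5.03e-06), and Jchain, which joins antibody units (limma adjusted p = 0.0124), and with size factors neither passed. Jchain and Iglc2 stayed below 1 TPM in every saline library, at up to 0.421 and 0.553 TPM. Both entered the test only through libraries of vesicle-treated tumours. The filter thus partly set the count of 2 of 4, and no conclusion is drawn from it. The heavy chain Ighm, at 2.61, 24.02 and 10.3 TPM with TIS sEV and 1.36, 2.90 and 0.676 TPM with saline, did not pass (limma adjusted p = 0.118). Neither did the light chain Iglc2, at 0.177, 9.41 and 1.603 TPM with TIS sEV and 0.141, 0.553 and 0.0974 TPM with saline (limma adjusted p = 0.113), and for both the groups overlapped. The 6 untested markers were below 1 TPM throughout, and the B-cell genes Ms4a1 and Pax5, named after their values were seen, reached at most 0.0169 TPM. Macrophage markers summed to 632 to 1610 TPM with TIS sEV, 1230 TPM with Cont sEV and 645 to 2083 TPM with saline. Epithelial markers summed to 564 to 2462 TPM with TIS sEV, 2774 TPM with Cont sEV and 1482 to 4332 TPM with saline. Neutrophil markers summed to 981 to 1837 TPM with TIS sEV, 651 TPM with Cont sEV and 1222 to 6115 TPM with saline. Of the tested markers of these 3 lists, and of fibroblasts, endothelium and keratinocytes, 0 passed between TIS sEV and saline. The part of any of these cell types in the Chchd10 level was not tested.

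By a fixed rule, the 8 coding genes most like Chchd10 were those with the highest Pearson correlation to it over the 7 libraries, on log2(TPM over size factor + 1), among 7250 genes with a mean of at least 5 TPM. They were Arl6ip4 (r = 0.988), Grb2, Rusc1, Ankrd13a, Grk2, Gm10073, Stx8 and Rassf1 (r = 0.968). Their fitted log2 differences between TIS sEV and saline, without subtraction of the median gene, were -0.44 to 0.14. Arl6ip4, for example, was at 30.1, 11.5 and 25.3 TPM with TIS sEV, 18.9 TPM with Cont sEV and 17.6, 25.4 and 26.8 TPM with saline. Divided by size factors, the scale of the rule, it was at 24.2, 32.5 and 25.5 with TIS sEV and 17.4, 16.8 and 17.8 with saline. On that scale the TIS sEV libraries of each of the 8 genes lay above its saline libraries, as in 11.4% of tested genes. The rule picked them for likeness to Chchd10, which separates the groups there, so the choice partly set this outcome. Among the relatives, r was 0.827 for Chchd2, 0.750 for Chchd7, 0.688 for Chchd5, 0.572 for Chchd1, 0.544 for Chchd6, 0.443 for Chchd4, 0.038 for Chchd3 and -0.379 for Immt. The points of these correlations share the size factor of TIS sEV replicate 2, the library with the highest scaled Chchd10 value.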

How the data were processed

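Primary-tumour RNA of 7 libraries was analysed. The authors deposited 1 table of TPM values, for which the submitters' processing notes name Salmon 1.4.0, Trim Galore 0.6.6, FastQC 0.11.9, DESeq2 1.28.0 and the build GRCm38.p6. How transcripts were summed to genes, and on which annotation, is not given in those notes. TPM columns, as deposited, sum to 1000000, which leaves sequencing depth unknown. Columns marked CE and NcE were read as control and nocodazole vesicles. The labels do not spell this out, and every vesicle comparison rests on it.

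Symbols and positions came from GENCODE M21 (55141 of 55487 identifiers matched). Genes with at least 1 TPM in 3 libraries (12058) were fitted on log2(TPM + 1) with limma 3.58.1 (R 4.3.3), using 1 mean per group over all 7 libraries, an intensity trend and Benjamini-Hochberg adjustment over all genes (threshold 0.05, two-sided). There were 4 residual degrees of freedom, and the lone Cont sEV library was assumed to vary like the others. In this fit limma's prior had infinite degrees of freedom, and each gene took the spread of the trend. The prior had 3.04 degrees of freedom with size factors, 3.26 without TIS sEV replicate 2 as well, and 1.77 with no filter. In those 3 settings the spread of each gene itself counted too. The p-value tests the fitted difference against 0, before the median gene is subtracted. For genes at low TPM the added 1 shrinks a difference. The fit was also run on simulated libraries that had no shift between them and a spread taken from size-factor-scaled values. That run cannot show how the fit handles a library like TIS sEV replicate 2.

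Members and lists were chosen with earlier results of these data known. Up to 4 genes per list, those with the highest mean TPM, were named, with any that passed. Acta1, Ckmt2, Krt14, Ms4a1, Pax5, Timm8a1 and Vpreb3 fall outside that rule and were chosen after their values were seen. The alternatives were another pseudocount (0.1), no filter, size factors, a replicate block, leaving out each TIS sEV or saline library in turn (the lone Cont sEV library was not left out), and size factors without TIS sEV replicate 2.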

Additional observations from a re-analysis of the deposited data

How the results depend on the processing

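Under all 11 alternatives, 0 of the 8 relatives of Chchd10 passed in any comparison, and Chchd10 itself kept a difference between TIS sEV and saline of 3.06 to 3.99 relative to the median gene. Some small differences of relatives changed sign. With no filter they were -0.11 (Chchd1), -0.13 (Chchd4) and -0.30 (Chchd5) for TIS sEV against saline, -0.22 (Chchd7) for TIS sEV against Cont sEV and -0.28 (Chchd3) for Cont sEV against saline. With a replicate block they were -0.21 (Chchd7, TIS sEV against Cont sEV) and -0.062 (Chchd3, Cont sEV against saline). Immt against saline was 0.064 without TIS sEV replicate 2, and 0.095 there with size factors. Chchd7 between TIS sEV and Cont sEV was -0.14 without TIS sEV replicate 2, -0.16 there with size factors, and -0.16 without TIS sEV replicate 3. Chchd3 between Cont sEV and saline was -0.083 without saline replicate 2. Over the 6 libraries left out in turn, Immt against saline ranged from -0.37 to 0.064, Chchd7 between TIS sEV and Cont sEV from -0.16 to 0.45 and Chchd3 between Cont sEV and saline from -0.083 to 0.076. With no filter, the relatives' fitted differences before subtraction were the same as in the main fit, and only the median gene moved. For TIS sEV against saline it stood at -0.13 with no filter and at -0.62 in the main fit. The cause of the other sign changes was not tested.

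Counts over all genes depended on the settings. For TIS sEV against saline, TIS sEV against Cont sEV and Cont sEV against saline, limma called 62, 27 and 25 genes. With no filter these counts were 0 (1230 at an unadjusted p under 0.05), 246 and 233. With size factors they were 0 (1780 at an unadjusted p under 0.05), 1 and 1, and without TIS sEV replicate 2 as well they were 0 (1493), 1 and 1. Leaving out 1 TIS sEV or saline library gave 7 to 353, 10 to 103 and 11 to 197. The replicate block gave 14, 5 and 9 calls. The labels do not say whether the numbers pair the libraries. Deviations from the group means of same-numbered TIS sEV and saline libraries correlated at -0.34, -0.012 and 0.070. This cannot decide the question, since deviations within so small a group depend on one another. TPM keeps no depth, so the precision of single values is unknown.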
